A study of Mus musculus with 4 samples.

Results

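Long intergenic noncoding RNAs are transcripts made between protein-coding genes, and the array used here carried probes for regions of the mouse genome proposed to make them. They were taken as all probes other than controls whose name in the scanner files is a chromosome, a start, an end and a strand (F for forward, R for reverse), which gave 16178 of 55681 probes. These belonged to 4606 of the 34844 named features on the array, 2318 forward and 2288 reverse regions at 3539 positions, of which 1067 carried both strands. A region had 1 to 10 probes of 60 bases each, and 1808 regions had 3. The median region spanned 10676 bases. Of the probes, 16060 had a position on the mm9 build.

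Primary hepatocytes of the strain labelled bl6 were grown with 10% fetal bovine serum. All samples were then held overnight at 0.5% serum with 5 µM simvastatin, which blocks cholesterol synthesis, and 100 µM mevalonic acid, an intermediate of that pathway. The 2 control samples received DMSO, and the 2 treated samples received 1 µM GW3965, an agonist of the liver X receptors (LXR), which switch on genes of cholesterol export and fatty acid synthesis. Titles shorten the agonist to GW, and the scanner file names of the same arrays to GL. The labels do not say whether replicates a and b of a group came from separate animals or cultures, so p-values measure only the spread between these samples, which may be technical.

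Long noncoding RNAs are often present at fewer copies per cell than messenger RNAs, and many stay in the nucleus. Some act as scaffolds, such as Neat1 in paraspeckles, some are hosts from which small RNAs are cut, and for many no function is known. Transcripts read from the same strand just beyond a gene can also be extensions of that gene's own transcript.

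The probe sequences are printed to be read beside the levels described further on, and the first set is shown because neighbouring probes of a region stood far apart. Each is a probe 60 bases long printed 5′ to 3′ as the scanner files give it, with every C in capitals. Of the 3 pairs, the first is from chr12:73838608-73862621 forward, the second from its reverse strand and the third from chr14:78924115-78938125 forward. Within each pair the first probe was the bright one.
chr12:73862399-73862458 forward, log2 level 7.68: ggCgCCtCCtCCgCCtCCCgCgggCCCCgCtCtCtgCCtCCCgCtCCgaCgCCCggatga
chr12:73862339-73862398 forward, log2 level -1.58: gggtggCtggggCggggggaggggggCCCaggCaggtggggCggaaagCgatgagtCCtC
chr12:73862326-73862385 reverse, log2 level 7.72: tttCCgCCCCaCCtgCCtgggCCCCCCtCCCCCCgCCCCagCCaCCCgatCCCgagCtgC
chr12:73862266-73862325 reverse, log2 level -1.55: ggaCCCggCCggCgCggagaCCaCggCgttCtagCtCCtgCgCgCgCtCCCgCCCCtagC
chr14:78936616-78936675 forward, log2 level 8.21: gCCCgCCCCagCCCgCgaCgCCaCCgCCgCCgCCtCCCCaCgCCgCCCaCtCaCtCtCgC
chr14:78936556-78936615 forward, log2 level -2.78: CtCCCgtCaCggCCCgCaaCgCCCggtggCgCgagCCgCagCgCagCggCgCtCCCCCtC

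The next 3 probes are shown because part of each, in capitals, stands letter for letter in a probe for a coding gene placed elsewhere in the genome. The first, without a position in the files, holds 28 bases of the probe for Rps29, a ribosomal protein. Its first 28 bases also stand in an unnamed probe placed just outside its region. The second holds 30 bases of the probe for Gm6222, and the third 30 bases of the probe for Hspe1, a mitochondrial co-chaperonin.
chr7:108209996-108216032 reverse: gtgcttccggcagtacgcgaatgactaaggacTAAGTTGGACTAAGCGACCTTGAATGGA
chrX:138967889-138967948 reverse: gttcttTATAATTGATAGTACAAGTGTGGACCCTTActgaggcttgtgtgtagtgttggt
chr12:82501144-82501203 forward: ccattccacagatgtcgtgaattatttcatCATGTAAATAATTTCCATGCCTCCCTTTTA

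The last set is of probes that the results on levels and on GW3965 turn on. The first is the brightest of the intergenic probes and lies in the Malat1 locus, the second lies in a region that also holds the probe for the telomerase RNA Terc, and the 3 after it are forward probes beside Mttp. The capitals in the third mark the 32 bases it shares with the array's probe for 1110002E22Rik. The last are, of the probes detected on all 4 arrays and without overlap between the groups, those with the smallest unadjusted p on the higher and on the lower side with GW3965.
chr19:5802130-5802189 reverse: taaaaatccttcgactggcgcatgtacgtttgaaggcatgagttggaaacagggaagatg
chr3:96216850-96216909 reverse: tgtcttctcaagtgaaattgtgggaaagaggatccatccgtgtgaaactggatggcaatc
chr3:137744315-137744374 forward: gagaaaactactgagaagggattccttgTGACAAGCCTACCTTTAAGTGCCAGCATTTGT
chr3:137742684-137742743 forward: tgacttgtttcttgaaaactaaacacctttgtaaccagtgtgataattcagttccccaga
chr3:137740142-137740201 forward: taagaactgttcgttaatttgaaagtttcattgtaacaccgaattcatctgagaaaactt
chr10:66363568-66363627 reverse: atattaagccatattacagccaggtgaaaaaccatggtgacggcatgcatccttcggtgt
chr9:113670720-113670779 forward: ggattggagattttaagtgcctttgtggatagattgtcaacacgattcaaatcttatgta

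Levels are log2 signal minus the 75th percentile of the array, so that 0 is a bright probe. A probe's brightness depends on its sequence as well as on its RNA, so levels of different probes are set side by side only as a description. In these bulk samples, fewer cells of a type and less RNA per cell cannot be told apart. Of the 14 hepatocyte markers on the list, all were detected on all 4 arrays, and their median level was 7.57 and 7.6 on the a arrays of DMSO and GW3965 and 5.36 and 5.23 on the b arrays. The median of endothelial markers was higher on b, at 0.77 and 1.19 against 0.35 and 0.30, and so was that of stellate cell markers, at 1.76 and 1.90 against 1.03 and 1.30. That of macrophage and leukocyte markers was lower on b, at -1.91 and -1.59 against -0.86 and -1.22. That of cholangiocyte markers was higher on b with DMSO, at -0.97 against -1.54, and lower with GW3965, at -0.91 against -0.83. Markers of other liver cells were detected too, on all 4 arrays for 8 of 9 macrophage and leukocyte genes, 7 of 7 endothelial genes, 6 of 7 stellate cell genes and 4 of 6 cholangiocyte genes with a probe. The LXR target Abca1, a cholesterol exporter, was 2.58 higher on the log2 scale with GW3965, which checks the labels of the treatment. Abca1 is 1 gene of a longer list. Abcg1 and Srebf1 on it were 1.98 and 1.24 higher, while others did not rise, such as Abcg5 (-0.16) and Apoe (-0.01).

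Intergenic probes were detected less often than coding ones. The scanner software put 48.6% and 53.1% of them well above background on DMSO arrays a and b, and 51.4% and 58.9% on GW3965 arrays a and b. Probes with NM accessions (coding transcripts, 26430 probes) stood at 74.6%, 76.3%, 75.5% and 78.8%, and probes with NR accessions (named noncoding transcripts, 886 probes) at 55.1%, 57.3%, 56.2% and 60.6%. The intergenic share was 23.3 ± 2.54 points below the coding share (mean ± SD over 4 arrays) and 4.31 ± 1.97 points below the noncoding one, below on 4 of 4 arrays in both cases. The exact sign-flip permutation test over arrays gave a two-sided p of 0.12, the smallest it can give with 4 arrays. Under the scanner's looser flag for a positive and significant signal, the gap to coding probes shrank to 10.6 points.

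**Figure D1:**
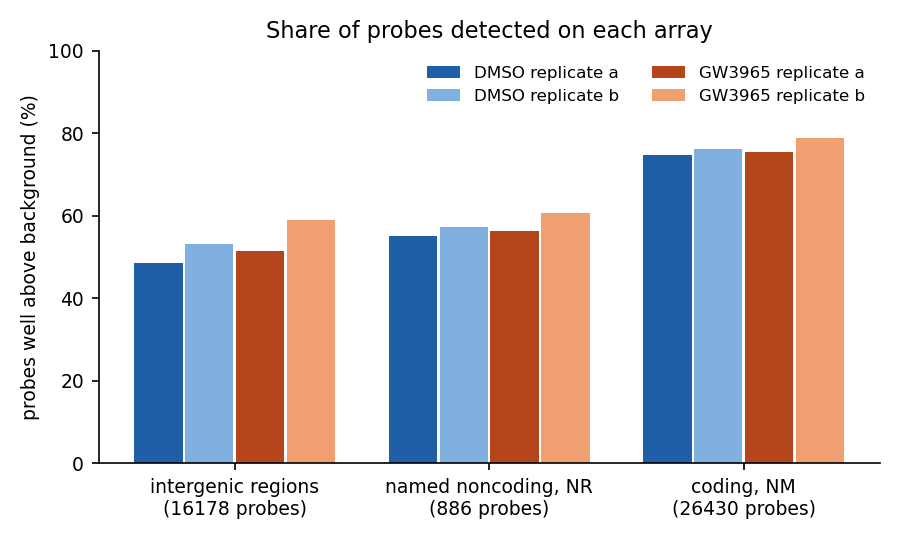
Share of probes well above background (vertical axis, percent) for intergenic regions, probes with NR accessions and probes with NM accessions, 1 bar per array. Intergenic bars run from 48.6% to 58.9% and coding bars from 74.6% to 78.8%, and GW3965 replicate b is the highest array in each class.

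Across the arrays, 45.8% of the intergenic probes (7409, in 3350 regions) were detected on all 4 arrays, 38.2% (6182) on 0 arrays, and the rest on 1 to 3. At least 1 probe was detected in 75.4% and 79.5% of regions on DMSO arrays a and b, and in 78.1% and 83.8% on GW3965 arrays a and b. Where at least 2 detected probes were asked of the 3916 regions that had 2 or more, the mean over arrays fell from 79.2% to 57.8%. The median level of the probes detected on all 4 arrays was -3.09 and -2.99 on the DMSO arrays and -3.06 and -2.93 on the GW3965 arrays, while that of coding probes lay between 0.36 and 0.40.

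Of all 4606 regions, 2241 (48.7%) had some but not all of their probes on all 4 arrays, 1109 had every probe and 1256 had none. Of the 1808 regions with 3 probes, 412 had every probe on all 4 arrays, 857 had some and 539 had none. Of the 147 regions with 10 probes, 13 had every probe, 127 some and 7 none. The share of probes detected fell from 50.1% in the first 20% of a region, at its 5′ end, to 44.0% in the last 20%, and it was 38.4% in regions of up to 500 bases against 44.6% to 47.0% in longer ones.

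Detection and brightness of intergenic probes followed the C content of the probe more than its G content. Of intergenic probes with at most 15% C, 35% were detected on all 4 arrays, with a median level of -6.34 over all such probes. This rose through 42.8% at 20 to 25% C and 59.1% at 25 to 30% C to 84.7% at 30 to 40% C, where the median level was -2.76. Above 40% C, 99.2% of 118 probes were detected, with a median level of 1.26. By G content the share stayed between 43.2% and 49.3% up to 40% G and was 78.2% in the 119 probes above it. Coding probes showed a smaller range, from 70.1% at up to 15% C to 90.3% at 30 to 40% C, with 100% of the 24 probes above that.

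**Figure D2:**
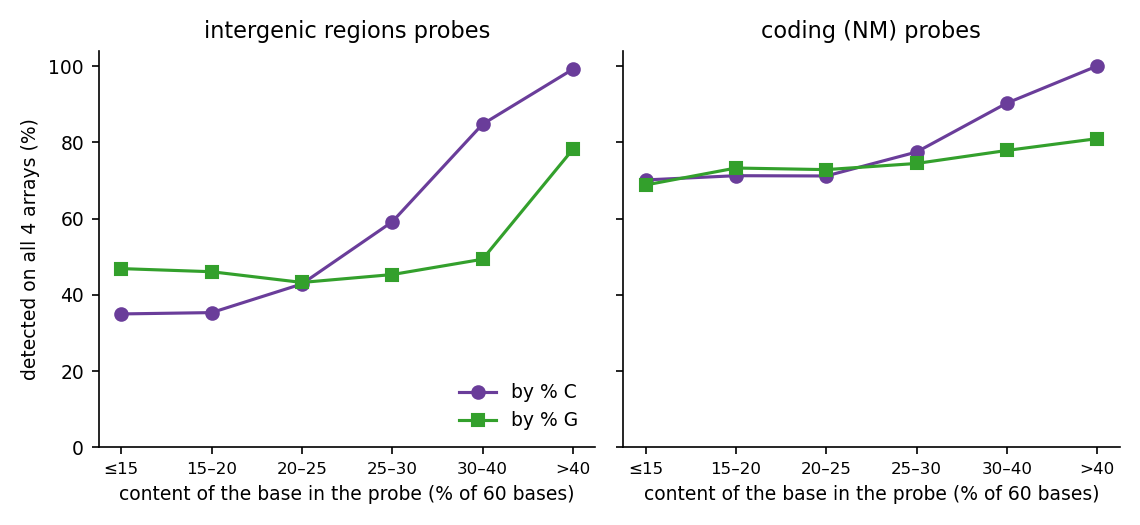
Share of probes detected on all 4 arrays (vertical axis, percent) against the content of C (circles) or G (squares) in the probe sequence (horizontal axis, percent of 60 bases), for intergenic probes on the left and coding probes on the right. The C line of intergenic probes climbs from 35% to 99.2%, while their G line stays between 43.2% and 49.3% until its last bin.

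For intergenic probes the same held at a fixed GC content. Among intergenic probes with over 40% and up to 45% GC, 63.6% of 693 probes with at least 2 times as much C as G were detected on all 4 arrays, against 35.9% of 803 probes with at least 2 times as much G as C. The median levels of these intergenic probes were -4.15 and -6.11. For coding probes the shares were 77.6% and 73.3%, and their median levels ran the other way, at -1.89 and -0.23. At 60% GC or more, the 67 intergenic probes with at least 2 times as much C as G were all detected and had a median level of 1.61, and the 58 with at least 2 times as much G had a median of -3.68.

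Neighbouring probes of a region, proposed to read the same transcript, also differed this way. In 3905 pairs of probes starting 60 to 200 bases apart, whether detected or not, where one probe had at least 5 more C than the other, the C-richer probe was brighter in 71.1% of pairs, by a median of 0.98 on the log2 scale. In the 1083 of these pairs whose G count differed by at most 2, it was brighter in 78.5%, by a median of 1.39. In 3899 pairs where one probe had at least 5 more G, the G-richer probe was brighter in 47.1%, with a median of -0.10. Where the C count of those pairs differed by at most 2 (1072 pairs), that share was 65.4% and the median 0.46.

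The bright probes printed above with their C in capitals are the far end of this range. The bright chr12 forward probe is 53.3% C and 26.7% G, and read 7.91 and 7.50 with DMSO and 8.0 and 7.30 with GW3965. Its dim neighbour, which starts 60 bases away and is 18.3% C and 58.3% G, read -1.53 and -1.56 with DMSO and -1.62 and -1.63 with GW3965. The chr14 pair was closer in composition, at 63.3% and 50% C, and still stood at 8.21 and -2.78. So was the chr12 reverse pair, at 60% and 45% C and both 78.3% GC, which stood at 7.72 and -1.55. The dim probes of both these pairs were above 40% C, where the median level was 1.26. The part of base composition in these levels was not tested.

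The brightest region by its brightest probe was chr19:5801802-5802597 reverse, in the locus of Malat1, an abundant nuclear noncoding RNA. That probe read 8.95 and 8.74 with DMSO and 8.96 and 8.43 with GW3965, and the other probes of the region stood at 6.93 and 7.49. The probe the array labels Malat1 itself stood at 2.42. The next region, chr11:22681800-22707775 reverse, read 8.71, 8.70, 8.74 and 8.26 in the same order. Its probe shares 45 bases with the probe for Rps16, a ribosomal protein gene on chromosome 7, whose level was 8.73. It also shares 52 bases with an unnamed probe placed in the chr11 region itself, at 8.51.

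Several other bright regions held or matched transcripts that are already named. The chr17:17481706-17482457 reverse region, at 8.29, contains the array's probe labelled Oaz1, an inhibitor of polyamine synthesis, which stood at 6.79. At chr17:39982023-39983277 forward the brightest probe gave 8.07 and 7.90 in DMSO samples and 8.06 and 7.81 in GW3965 samples, and 2 other forward regions of the locus held the probe for the 18S ribosomal RNA, Rn18s, at 9.58. The brightest probe of chr1:193875525-193978800 reverse stood at 8.48, in a region that also holds the Rcor3 probe (0.72) and another probe of its own at -1.67. The chr17:48068261-48087905 forward region, at 8.16, and the chr7 probe with the Rps29 run, at 7.95, complete the 8 brightest.

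Shared sequence was more common at the bright end. Of all intergenic probes, 1.42% (229) shared a run of at least 25 bases with another probe of the array, against 12 of the 100 brightest. Only the 60-base probes were compared, so a match to another part of a transcript would not be counted. Of the 229, 85 shared it with a probe of an NM or NR accession and 28 with one placed over 100 kb away or on another chromosome. The chr12 probe with the Hspe1 run stood at 4.80 and the Hspe1 probe at 6.07, and the chrX probe with the Gm6222 run stood at 6.26 and the Gm6222 probe at 7.42. Of the 100 brightest probes, 29 had at least 60% GC, against 6.69% of those detected on all 4 arrays, and 22 of the 29 held more C than G. Whether such a probe reads its own region or the gene it matches cannot be told apart here.

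Regions were not always empty of other transcripts. Of 4606 regions, 1349 (29.3%) held some other probe, 130 a coding probe of the same strand and 144 a named noncoding one. The Terc region, chr3:96215885-96218756 reverse, had a probe that gave 6.36 and 6.71 in DMSO samples and 6.42 and 6.45 in GW3965 samples, while the Terc probe, for the RNA template of telomerase, stood at -3.23. The dimmest intergenic probe of that region stood at -4.83. Whether the bright probe reads RNA of that region or of another place was not tested. The region chr4:136856064-136877219 reverse held the probe for the small GTPase Cdc42 at 5.94 and its own brightest probe stood at 6.13, with 35 bases in common.

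Intergenic probes close to some named long noncoding RNAs were detected more often than intergenic probes as a whole (45.8%). Of 35 on the list, 25 were matched to a probe and 11 had intergenic probes within 10 kb on their strand, 84 probes in all, of which 71 (84.5%) were detected on all 4 arrays. Jpx was not matched, although the array holds a probe for it. That probe shares 52 bases with an intergenic probe at -7.79, not detected on all 4 arrays and not among the 84. Other listed RNAs could be missed in the same way. The probes of the named RNAs themselves were not all detected, as with 0 of 3 for Dnm3os, 1 of 3 for Meg3 and 4 of 7 for H19 on all 4 arrays, and probes with NR accessions as a class stood at 52.8%. Malat1 had 7 of 7, from 2.50 to 8.77, and Neat1, the scaffold of paraspeckles, 3 of 3, from 2.46 to 3.6. Mir17hg, the host of a microRNA cluster, had 12 of 13, up to 2.50, and Pvt1 13 of 15, up to 1.65. Gas5 and Snhg3, hosts of small nucleolar RNAs, had 5 of 5 and 2 of 2, all at or below -0.51, while the brightest probe labelled Gas5 itself stood at 5.74. Tug1 had 13 of 18, Dleu2 4 of 4, Terc 3 of 3, Airn 1 of 1 and Mirg, of an imprinted microRNA locus, 8 of 13.

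The regions with the most detected probes had all 10 of their probes on all 4 arrays. This held for 13 regions, and only some of them are named here. In chr5:74487385-74497428 forward, which holds the probe of the noncoding RNA Dancr (NR_015531, in the files 2700023E23Rik) at 2.04, levels ran from -2.07 to 3.25. In chr16:43623581-43642715 forward they ran from -3.07 to 4.24, and in chr4:129497990-129515290 forward from -1.89 to 1.08. Also named were chr8:119732348-119749198 forward, chr17:26911397-26917047 forward and chr6:116092274-116144199 reverse, with highest levels of 1.27, 0.66 and 0.68. Even here, the brightest and dimmest probes of each named region stood over 4-fold apart.

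Probes of 1 region agreed less the farther apart they lay. Over 1131 regions with at least 3 probes on all 4 arrays, the SD of level between probes was 1.04 (median), against 0.18 between the DMSO replicates of a probe and 0.21 between the GW3965 replicates. Over 8133 pairs of probes of a region, which share a target and the 4 arrays, Pearson's r of levels was 0.44. It was 0.77 for 102 pairs up to 59 bases apart, which overlap, 0.61 for 3566 pairs at 60 to 200 bases, 0.46 for 2090 pairs at over 200 and up to 1000 bases, 0.21 for 1104 pairs at over 1000 and up to 5000 bases and 0.11 for 1271 pairs beyond.

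**Figure D3:**
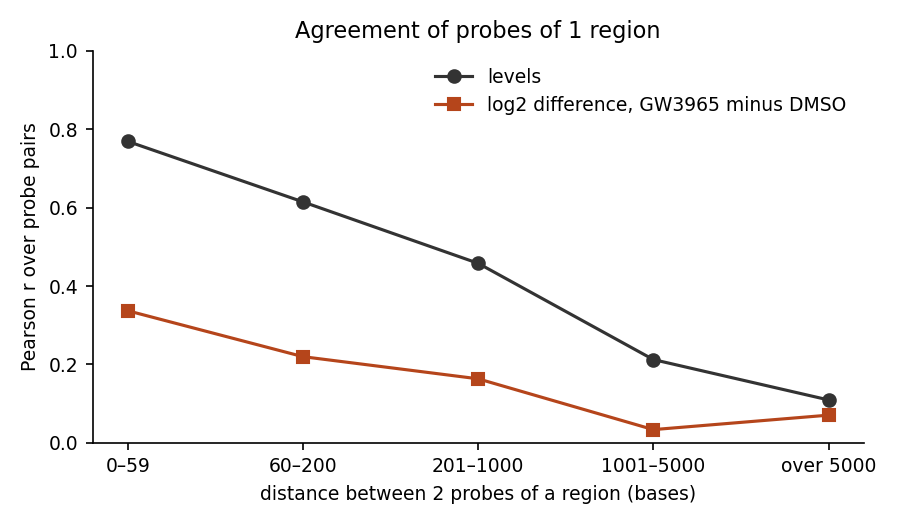
Pearson's r over pairs of probes of the same region (vertical axis) by the distance between them (horizontal axis, bases), for levels (circles) and for log2 differences between GW3965 and DMSO (squares), on probes detected on all 4 arrays. The r of levels falls from 0.77 to 0.11, and the r of differences lies below it at every distance.

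The log2 differences between GW3965 and DMSO agreed more weakly. Their r over the 8133 pairs was 0.16, and 59.8% of pairs had the same sign. It was 0.34 for overlapping pairs and 0.03 at over 1000 and up to 5000 bases. In the 625 pairs where both levels were above 0, r was 0.54 and 71.2% had the same sign. Leaving out 1 array raised r, the most to 0.36 without DMSO replicate a, where 1 array then stands for the group in every pair.

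Both strands were detected at most positions that carried both. Of 1067 such positions, 702 (65.8%) had a probe on all 4 arrays on each strand, 148 on the forward strand alone, 154 on the reverse strand alone and 63 on neither. Across all 1067 positions, the brightest forward and reverse probes differed by a median of 2.36, by at least 8-fold at 438 positions, and their r was 0.22. Ranked by its dimmer strand, the brightest position was the chr12 one printed above, where the reverse probe read 7.84, 7.63, 7.86 and 7.54 on DMSO a, DMSO b, GW3965 a and GW3965 b. The next was chr17:39960567-39992817, in the ribosomal RNA locus, with a forward probe at 6.37 (mean) and a reverse probe from 5.61 to 6.00. At chr5:34696192-34722842, 17115 bases from Rnf4, the forward probe stood between 5.28 and 5.47 and the reverse one between 2.90 and 3.15.

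Detection near coding genes depended on strand. Of the placed probes, 80.5% lay within 100 kb of a coding probe, at a median distance of 33176 bases. Within 1 kb of the nearest coding probe, 78.5% of 233 probes on its strand were detected on all 4 arrays, against 38.6% of 295 on the other strand. At 1 to 5 kb the shares were 63.0% of 698 and 38.8% of 812, at 5 to 10 kb 53.7% and 46.7%, and beyond 100 kb 41.5% and 39.6%. Intergenic probes that overlap the coding probe were not left out, such as 1 that shares all 60 bases with the Man1a2 probe. Per array, the same strand led by 34.4 ± 4.95 points (mean ± SD) within 1 kb, by 23.7 ± 1.10 at 1 to 5 kb and by 7.87 ± 1.40 at 5 to 10 kb, each on 4 of 4 arrays. The exact sign-flip permutation test gave a two-sided p of 0.12 for each, the smallest it can give. The median GC content was the same on both strands in each of these bins, at 41.7%, 43.3% and 45%. GC content does not separate C from G, and the C content of the strands was not compared.

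**Figure D4:**
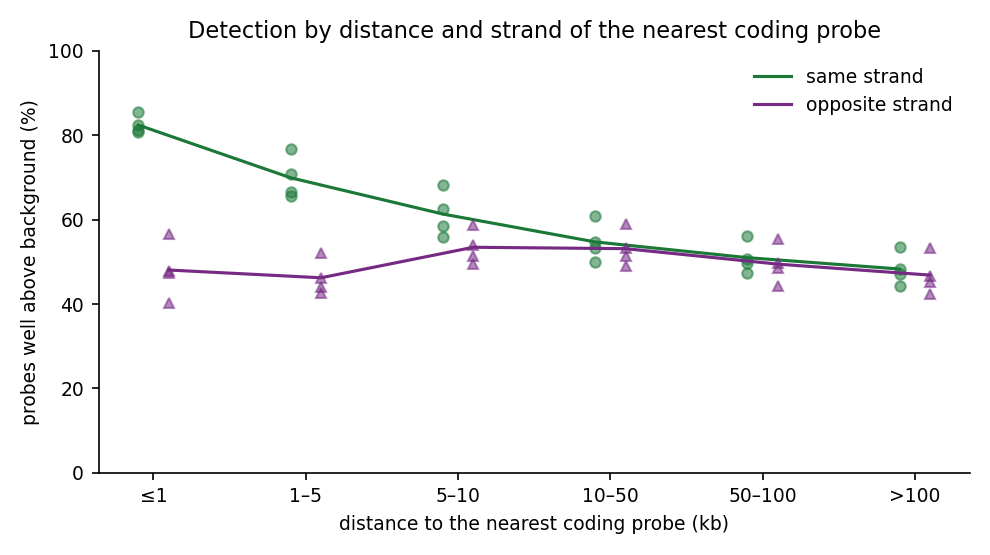
Share of intergenic probes well above background (vertical axis, percent) by distance to the nearest coding probe (horizontal axis, kb), for probes on that probe's strand (circles) and on the other strand (triangles). Each symbol is 1 array and lines join the means of 4 arrays. Every array is higher on the same strand in every bin. The strands are far apart up to 5 kb and close together beyond 10 kb.

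The differences between GW3965 and DMSO of intergenic probes and of their coding neighbours were also closer on the same strand near the gene. Over pairs with both probes on all 4 arrays, which share those arrays, r was 0.33 within 1 kb on the same strand (174 pairs) and 0.11 on the other (106 pairs), and 0.18 and 0.05 at 1 to 5 kb. Over all 5244 pairs within 100 kb it was 0.06. Pairs whose probes overlap on the same strand were not left out, so some pairs read the same bases.

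Which intergenic transcripts differ when LXR is activated was read from GW3965 against DMSO samples. In limma with Benjamini-Hochberg adjustment over all 35468 probes tested, 0 of 8247 intergenic probes passed an adjusted p of 0.05, where 0% of all probes passed. Among the 7409 intergenic probes detected on all 4 arrays, 36 were higher and 11 lower at an unadjusted p under 0.05, beside 0.281% and 0.101% of all 33503 probes detected on all 4 arrays, and the intergenic shares were 0.486% and 0.148%. With quantile normalization these counts were 27 and 21, and with each array's median subtracted 26 and 16. The median level of those 47 probes was -4.36, near the dim end. Without 1 array these counts were 14 and 20 (DMSO replicate a), 44 and 50 (DMSO replicate b), 64 and 27 (GW3965 replicate a) and 41 and 18 (GW3965 replicate b).

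More intergenic probes lay higher than lower, but not without GW3965 replicate b, where 2165 were higher without overlap and 2190 lower (49.7% higher). With all 4 arrays, 970 (13.1%) were higher and 403 (5.44%) lower without overlap between the groups, beside 9.03% and 6.52% of all probes, so that 70.7% of these were higher. With quantile normalization the counts were 781 and 562 (58.2% higher), and with each array's median subtracted 686 and 646 (51.5% higher). The median difference was 0.04, with 60.4% of probes higher, against -0.0046 for all probes, and it was -0.0094 after subtracting medians, where all probes stood at -0.0551, and -0.0049 without GW3965 replicate b. Over the 4 pairs of 1 GW3965 and 1 DMSO array it ran from -0.04 to 0.15. At least a 2-fold difference without overlap was seen for 9 higher and 11 lower probes, beside 0.0925% of all probes in each direction.

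The excess of higher probes grew as levels fell. At levels up to -4, 17.5% of 1944 probes were higher without overlap and 6.89% lower, whereas above 0 the shares were 6.15% and 5.72% of 927. Coding probes went from 12.5% and 7.04% to 5.51% and 7.28% over the same bins. Likewise, 167 intergenic probes (1.03%) were detected on both GW3965 arrays and neither DMSO array, and 9 (0.06%) the other way round. Among all probes on the array these shares were 0.630% and 0.0413%. By replicate letter, 434 of the 16178 intergenic probes were detected on both b arrays and neither a array, and 42 the other way round. Of all 55681 probes, these counts were 1074 and 147, so b led over the array as a whole too. GW3965 replicate b had the most intergenic probes detected of the 4 arrays.

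The chr10:66349796-66378261 reverse region held the higher probe with the smallest p among those detected on all 4 arrays and without overlap. Its probe printed above read -5.39 and -4.94 with DMSO and -3.93 and -4.15 with GW3965, so that both treated arrays lay above both controls, a 2.18-fold difference of 1.13 ± 0.25 (SE, unadjusted p of 0.0063 and adjusted p of 1 in limma). Another probe of the region, also on all 4 arrays, was 0.91 higher. The region's other 3 probes, on only 2 or 3 arrays, were 1.10, 1.75 and 2.12 higher, and the 5 probes lie side by side. Each of these 3 differences rests in part on values not well above background, so they are not counted as agreement. The nearest coding gene, Reep3, a shaper of the endoplasmic reticulum 110644 bases away, differed by 0.09.

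The other higher probes of small p were dim as well. Outside that region, their levels with DMSO lay between -5.34 and -2.97. At chr10:9322308-9332183 forward the probe read -5.08 and -5.12 with DMSO and -3.24 and -4.14 with GW3965, a 2.65-fold difference of 1.41 ± 0.34, while of its 3 neighbours, on 0 to 2 arrays, 2 were higher and 1 was 1.05 lower. At chr16:94055900-94120575 reverse the values were -4.74, -4.71, -3.92 and -3.96, a difference of 0.79 ± 0.19, and the region's other 4 probes differed by -0.11 to 0.08. The others, on chromosomes 1, 3, 4, 8 and 19, were 1.58-fold to 2.12-fold higher, the last at chr8:18895366-18925423 reverse, with unadjusted p from 0.0093 to 0.0231 and an adjusted p of 1.

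Among lower probes under the same limits, the one with the smallest p was in chr9:113650590-113670786 forward. It read -3.81 and -3.61 with DMSO and -4.55 and -4.78 with GW3965, a difference of -0.96 ± 0.21 (unadjusted p of 0.0066 and adjusted p of 1 in limma). The region's other probes differed by 0.10 and -0.28. At chr6:108162092-108162886 reverse 1 probe was lower by 1.29 ± 0.30, from -3.08 and -3.79 to -4.78 and -4.68, and its neighbours by 0.20 and 0.22. The remaining 8 probes were 1.49-fold to 2.12-fold lower, with p from 0.0224 to 0.0474.

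Few regions differed with all their probes. Of the 1131 regions with at least 3 probes on all 4 arrays, 260 had every probe higher and 130 every probe lower, and every probe lay without overlap in 8 higher and 1 lower region. Other names on the array with several probes were not counted in this way. Whether 8 higher regions are more than such names would give was therefore not tested, and the regions named below are a description. No region mean reached 2-fold, and the largest were 0.53 higher and 0.57 lower.

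The forward strand beside Mttp, the gene of the protein that loads triglyceride onto apolipoprotein B, held 1 of these 8. Its mean difference was 0.52, and the largest of the 8 was 0.53, at chr18:63455560-63548085 reverse. The region chr3:137736327-137752677 forward had 5 of 5 probes higher, from 0.46 to 0.57. Its brightest probe, printed above with capitals, read 0.65 and 0.61 with DMSO and 1.18 and 1.00 with GW3965, 1.37-fold higher with an unadjusted p of 0.0678. Its dimmest read -5.00 and -4.98 with DMSO and -4.40 and -4.44 with GW3965, 1.48-fold higher with a p of 0.0297.

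Other regions of that strand were named after their values were seen, because they overlap it. Together the 3 regions had 10 forward probes, 9 of them on all 4 arrays, and these 9 were higher without overlap, from 1.37-fold to 1.62-fold, with an adjusted p of 1 each. Of all probes on all 4 arrays 9.03% were higher without overlap, and 6 of the 9 were named for that pattern or for a small p, so their count is a description of the choice. The printed probe of chr3:137734560-137740335 read -3.11 and -2.97 with DMSO and -2.32 and -2.38 with GW3965, and it is one of the 10 higher probes with the smallest p (0.0162) under those limits. The array's probe for 1110002E22Rik, placed at the same bases as 1 of the 9, was 0.45 higher. Of the 5 reverse probes there, 0 were detected on all 4 arrays, and Mttp itself, on the reverse strand 9494 bases from the printed brightest probe, gave 2.52 and 2.64 in DMSO samples and 2.51 and 2.21 in GW3965 samples, a difference of -0.22, with an unadjusted p of 0.35.

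**Figure D5:**
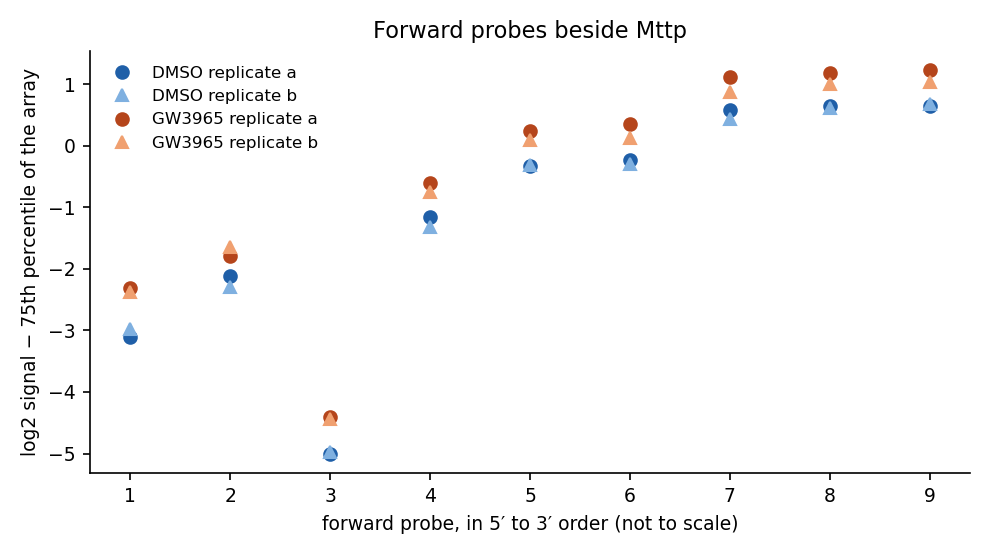
Level (vertical axis, log2 signal minus the array's 75th percentile) of the 9 forward probes beside Mttp detected on all 4 arrays, in 5′ to 3′ order (horizontal axis, not to scale), with 1 symbol per array. Both GW3965 symbols lie above both DMSO symbols for each of the 9 probes, at levels from -5.00 to 1.23.

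The other regions of this kind differed less or were dimmer. At chr8:126268510-126290810 reverse the 5 probes on all 4 arrays, of 7 printed, were higher, from 0.32 to 0.58, and 4732419C18Rik inside it by 0.19. At chr18:63455560-63548085 reverse the 4 probes on all 4 arrays, of 5 printed, were higher by a mean of 0.53 at levels near -4.59. At chr3:30032959-30079659 reverse the 3 on all 4 arrays, of 4 printed, were higher by a mean of 0.40. The 1 lower region was chr17:38132217-38157667 forward, where the 4 probes on all 4 arrays, of 8 printed, were from 0.24 to 0.34 lower. The other 4 higher regions were chr2:151992806-152025456 reverse (3 probes of 4 printed), chr18:78188082-78194070 forward, chr1:163528200-163528398 forward and chr8:72671462-72672533 forward. Their mean differences were 0.34, 0.26, 0.15 and 0.09. In the last, 1 probe turned to -0.0243 with medians subtracted.

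Of the LXR targets on the list, Lpl, Pltp, Smpdl3a and Arl4c had intergenic probes within 100 kb, 14 in 6 regions. Of the 14 probes, 5 were detected on all 4 arrays, and these differed by 0.01 to 0.36 with unadjusted p from 0.167 upwards. The closest to Smpdl3a, a lipid phosphodiesterase gene, lay 18 kb away and was 0.36 higher, giving -4.87 and -5.04 in DMSO samples and -5.01 and -4.18 in GW3965 samples, where the groups overlapped. Lpl, the lipase of triglyceride-rich lipoproteins, was 0.44 and 0.63 higher by its 2 probes, with unadjusted p of 0.27 and 0.19 and overlapping groups for both, and the intergenic probe on all 4 arrays near it 0.33 higher, with an unadjusted p of 0.167.

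Just inside the 2-fold line stood a probe of chr15:58985505-58987543 forward, 1.07 higher at -1.35, -0.96, 0.78 and -0.93, where GW3965 replicate a alone stood apart. Just outside it, at 0.98 higher, was one of chr6:148162552-148176577 reverse. On the lower side they were 1 of chr18:13114367-13118513 forward, 1.00 lower, and the chr9 probe described above.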

How the data were processed

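Total RNA was labelled with Cy3 and hybridised to 4 Agilent arrays on 1 slide. Per the file headers, the deposited values are processed intensity from Agilent Feature Extraction, background-corrected and not scaled between arrays; version 11.5.1.11 is from the submitters' processing notes. The authors' deposited matrix holds identical intensity values. Spots flagged as outliers were left out, spots of a probe averaged, log2 taken and each array's 75th percentile subtracted. Probes that passed gIsWellAboveBG on both arrays in either group were fitted one by one with limma 3.58.1 in R 4.3.3 (files read with data.table, version 1.17.8), by group, two-sided, with Benjamini-Hochberg adjustment over all 35468 probes. Counts of differences use probes on all 4 arrays. Detection is gIsWellAboveBG. Positions are mm9, and symbols came from RefSeq for 26756 of 28390 accessions; other names are the file's. The remaining steps ran in Python 3.11.15 with numpy 2.4.6, pandas 2.3.3 and scipy 1.17.1, and figures in matplotlib 3.10.9. The fit was tested on simulated data. An interval of chromosome 4 is not reported here.

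The members and lists were chosen with earlier results of these data known. Regions are named by 7 rules: the 8 brightest, up to 10 probes in each direction with the smallest p on all 4 arrays and without overlap, those with the most detected probes or with at least 3 probes that all differ one way without overlap, the brightest with both strands, those within 100 kb of listed LXR targets, the brightest that hold a named transcript, and those beside the 2-fold line. The base composition, the Slc7a5 and other replicate-letter probes, and the overlapping regions beside Mttp were chosen after seeing values. Alternatives were other normalizations and background correction, other filters, 1 value per name, limma with trend or robust prior, the replicate letter as a block, other thresholds and leaving out each array. The number of arrays limits the precision.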

Additional observations from a re-analysis of the deposited data

How the results depend on the processing

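Intergenic probes called at an adjusted p under 0.05 in limma numbered 0 in every alternative but the replicate block, where 4 passed, beside 16 of all 35468 probes. Samples of the same letter deviated together (r 0.44 over intergenic probes, 0.69 over all probes tested), but the labels do not say what a letter marks and there are only 2 pairs, so the pairing was not used. Unadjusted counts (36 higher, 11 lower) became 316 and 105 with the replicate block, 11 and 0 with normexp, 15 and 3 with an intensity trend, 352 and 146 with no filter, and 21 lower with quantile normalization. Leaving out an array gave 14 to 64 higher and 18 to 50 lower. Counts without overlap (970 and 403) became 1993 and 1980 with no filter, 453 and 160 with 1 probe per name and 504 and 146 with the mean per name. They were 646 lower with medians subtracted, and 2165 to 3309 higher and 1435 to 2190 lower without an array, where 3 arrays overlap less often by construction. At 2-fold (9 and 11) they were 3 and 0 with normexp, 258 and 150 with no filter, 60 and 21 with the filter on 1 group, 5 and 2 with 1 probe per name, 5 and 3 with the mean per name, 42 and 29 at 1.5-fold, and 25 to 43 and 28 to 44 without an array. The causes were not tested.

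The gap to coding probes was -10.6 points under gIsPosAndSignif, and regions detected were 93.0% under it or 57.8% with at least 2 probes. The lead of the same strand within 5 kb (26.3 points) was 16.3 points under that flag and 18.5 within 10 kb. Agreement of levels was 0.425 with the filter on 1 group and 0.459 with normexp, that of differences (0.159) 0.284 to 0.360 without an array, and pairs of 1 sign 62.7% to 65.4%. The r with coding neighbours (0.056) was 0.080 to 0.111 without an array. Of 689 refits of 53 named probes, 688 kept their sign; a chr8:72671462-72672533 forward probe was reversed, at -0.0243, with medians subtracted.

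With 2 arrays per group, small differences of dim probes could not be told from replicate spread.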

Other observations

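A few intergenic probes differed between the replicate letters in both groups alike. Of the 7409 detected on all 4 arrays, 5 (0.0675%) were at least 4-fold higher on a than on b in both groups, and 7 (0.0945%) at least 4-fold higher on b. These shares lay below those of all probes, 0.194% and 0.191%, and of coding probes, 0.260% and 0.239%. Of the 7, 4 belonged to chr8:124355710-124401160 reverse and 1 to chr8:124397412-124398022 reverse within it, 7132 to 7569 bases from Slc7a5, an amino acid transporter, on its strand. The one with the widest gap read -3.61 and -0.26 on DMSO arrays a and b and -3.21 and -0.48 on GW3965 arrays a and b, and the Slc7a5 probe read 0.31, 1.61, 0.48 and 1.72. In the other direction, a probe of chr10:95772764-95825001 forward read -1.31, -5.08, -1.34 and -4.68 in the same order, and another of that region -0.99, -4.01, -1.07 and -3.85. A probe of chr3:90425270-90435820 forward, 9863 bases from S100a6 on its strand, read -4.92, -2.67, -4.80 and -2.76, and the S100a6 probe 5.33, 6.48, 5.11 and 6.15. Other coding neighbours did not follow. Epop, on the other strand 4846 bases from a chr11:97457180-97487074 forward probe that was higher on a (-2.24, -4.49, -2.39 and -4.69), was higher on b, at 1.77, 3.33, 1.90 and 3.40. Btg1, the nearest to the chr10 probes, stood between 5.17 and 5.38. Over all intergenic probes on all 4 arrays, the gap between a and b in one group and in the other had an r of 0.53 (7409 probes, which share the 4 arrays), and over coding probes 0.83. Hepatocyte markers were also lower on both b arrays, with medians of 5.36 and 5.23 against 7.57 and 7.6, and each of the 14 was lower there, from small gaps such as Alb (9.45 and 9.35 with DMSO) to wide ones such as Ahsg (7.56 and 4.96). Endothelial and stellate cell markers had higher medians on both b arrays, although Kdr, an endothelial marker, was lower on both. Macrophage and leukocyte markers had lower medians on both b arrays. The part of any of these cell types in the gaps was not tested.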
